A study of Homo sapiens with 6 samples.

Results

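The microRNA host genes are long transcripts named for the microRNAs they carry, and they were taken here as every row of the gene table whose name starts with MIR and ends with HG. The rule gave 63 of 58825 genes. Of these 26 had enough counts to be tested, 19 had some counts but too few to be tested, and 18 had no count in any library. Between SIGLEC15 siRNA and control siRNA no host gene passed edgeR's quasi-likelihood test at an adjusted p under 0.05. Over all genes tested 4.65% did. DESeq2 called 2 of the tested hosts (7.69%, against 15.4% of all genes tested). In edgeR 6 hosts had an unadjusted p under 0.05 (23.1%, against 19.1% of all genes tested). Host transcripts of miR-155, miR-221 and miR-222, miR-22, miR-31 and miR-17-92 were among the 10 hosts that averaged at least 1 FPKM. The others were MIR4435-2HG, MIR4458HG, MIR4453HG, MIR3142HG and MIR4697HG. The median of all genes tested was 2.22 FPKM, above the means of MIR31HG (2.09) and MIR17HG (1.12).

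Most animal microRNAs begin inside a longer RNA that is capped and usually polyadenylated. The nuclear enzyme DROSHA cuts a hairpin out of that RNA, DICER1 trims the hairpin to the mature microRNA, and an Argonaute protein then uses the mature strand to silence mRNAs that pair with its seed. Hairpins lie either in introns or in exons of the host, so the level of the spliced host RNA need not follow the level of the mature microRNA. Several of the hosts are well known in cancer: MIR17HG carries the miR-17-92 cluster, which MYC activates, MIR34AHG carries miR-34a, a target of p53, and MIR210HG carries miR-210, which hypoxia induces.

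The libraries came from 143B, an established human osteosarcoma line obtained from a commercial supplier. The cells received either a siRNA against SIGLEC15, a sialic acid-binding receptor, or a negative control siRNA. Both siRNAs were given at 80 nmol/L, and RNA was taken after 36 h. There were 3 libraries per group. The cells of both groups therefore went through transfection, and no untransfected cells were analysed here. Nothing in the labels tells whether libraries of 1 group are separate cultures, so p-values reflect the spread of these libraries alone, and that spread may be technical. The RNA was selected by its poly(A) tail, so mature microRNAs were not measured and every value below is for a host transcript or another long RNA.

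The libraries held 57966691 to 67655254 counts in the SIGLEC15 siRNA group and 58818956 to 61858116 counts in the control group. SIGLEC15 itself had 12, 8 and 6 counts in the SIGLEC15 siRNA libraries and 12, 10 and 22 counts in the control libraries. These ranges overlap, and the log2 fold change of -0.82 (SE 0.598) did not pass edgeR's quasi-likelihood test (adjusted p = 0.529; exact two-sided permutation p = 0.2, where 0.1 is the smallest that 3 against 3 libraries allow). At these counts the targeted gene gives no check of the labels. Of the mesenchymal and osteoblast markers, VIM averaged 437 FPKM in the SIGLEC15 siRNA group and 482 FPKM in the control group, and SPARC averaged 109 FPKM in the SIGLEC15 siRNA group and 62.6 FPKM in the control group. SPP1 averaged 13.6 FPKM in the SIGLEC15 siRNA group and 15.8 FPKM in the control group, CDH2 18.9 FPKM in the SIGLEC15 siRNA group and 20.5 in the control group, and COL1A1 1.78 FPKM in the SIGLEC15 siRNA group and 1.10 in the control group. SPARC and COL1A1 passed the test. RUNX2 averaged 1.31 FPKM in the SIGLEC15 siRNA group and 0.327 FPKM in the control group, with groups that did not overlap, and did not pass (log2 fold change 2.00, edgeR adjusted p = 0.113). COL1A2, BGLAP and ALPL summed to 24, 60 and 69 counts over all 6 libraries, and THY1 had none. Of the markers of other cell types, the epithelial keratins KRT18 and KRT8 and the epithelial surface protein EPCAM averaged 203, 26.1 and 3.41 FPKM in the SIGLEC15 siRNA group and 197, 26.9 and 4.10 FPKM in the control group. Neuronal TUBB3 averaged 9.44 FPKM in the SIGLEC15 siRNA group and 18.1 FPKM in the control group, with groups that did not overlap, and did not pass (edgeR adjusted p = 0.195). Endothelial PECAM1 summed to 103 counts over all 6 libraries and hepatocyte ALB to 9, while the leukocyte markers PTPRC and CD3E, the epithelial cadherin CDH1 and the endothelial cadherin CDH5 had no count.

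The mature microRNAs encoded in the hosts show which clusters the host values refer to. All 26 tested hosts held at least 1 mature sequence on their own strand in the RefSeq table (GRCh38.p14), from 46 hairpins in all; 23 of these hairpins lay in exons of GENCODE 29 and 23 in introns. The sequences below are those of the hosts that the results turn on. They are written 5′ to 3′, and capitals mark the seed, bases 2 to 8, which pairs with target mRNAs.
hsa-let-7a-5p: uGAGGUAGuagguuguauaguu
hsa-let-7b-5p: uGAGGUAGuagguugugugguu
hsa-let-7c-5p: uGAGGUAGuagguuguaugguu
hsa-miR-4458: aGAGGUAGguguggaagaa
hsa-miR-100-5p: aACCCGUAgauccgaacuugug
hsa-miR-99a-5p: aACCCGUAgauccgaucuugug
hsa-miR-125b-5p: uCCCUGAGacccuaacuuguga
The seed GAGGUAG of the let-7 family occurred in 4 tested hosts. let-7a lay in MIR100HG and MIRLET7BHG, let-7b in MIRLET7BHG, let-7c in MIR99AHG and miR-4458 in MIR4458HG. MIR100HG and MIR99AHG are a pair of related clusters: each held a let-7, a miR-125b and either miR-100 or miR-99a, with the same 3 seeds. In MIR100HG these lay in introns on the minus strand of chromosome 11, and in MIR99AHG in introns on the plus strand of chromosome 21.

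The MIR17HG cluster lay in an exon on the plus strand of chromosome 13, from position 91350618 at the start of miR-17-5p to 91351382 at the end of miR-92a-3p. Its 6 main mature forms share 4 seeds, shown by one form for each.
hsa-miR-17-5p: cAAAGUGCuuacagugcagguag
hsa-miR-18a-5p: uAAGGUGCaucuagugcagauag
hsa-miR-19a-3p: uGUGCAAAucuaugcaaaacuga
hsa-miR-92a-3p: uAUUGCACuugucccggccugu
The remaining hosts with a result of their own carry the following forms. miR-221 and miR-222 share one seed and lay in an intron of MIR222HG on the X chromosome, miR-137 lay in an exon of MIR137HG on chromosome 1, miR-193b in an intron of MIR193BHG on chromosome 16, miR-155 in an exon of MIR155HG on chromosome 21, miR-34a in an exon of MIR34AHG on chromosome 1 and miR-146a in an exon of MIR3142HG on chromosome 5.
hsa-miR-221-3p: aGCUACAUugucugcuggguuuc
hsa-miR-222-3p: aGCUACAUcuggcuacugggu
hsa-miR-137-3p: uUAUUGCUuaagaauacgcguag
hsa-miR-193b-3p: aACUGGCCcucaaagucccgcu
hsa-miR-155-5p: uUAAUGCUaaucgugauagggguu
hsa-miR-34a-5p: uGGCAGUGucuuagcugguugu
hsa-miR-146a-5p: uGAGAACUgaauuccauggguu

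Levels between hosts are compared as FPKM, which is per length of transcript. A mean of at least 1 FPKM over the 6 libraries was reached by 10 of the 63 hosts, and by 12032 of the 58825 genes of the table. The order of those 10 was MIR155HG (4.29 FPKM), MIR222HG (3.40), MIR4435-2HG (2.90), MIR22HG (2.59), MIR4458HG (2.48), MIR31HG (2.09), MIR4453HG (2.04), MIR3142HG (1.39), MIR17HG (1.12) and MIR4697HG (1.08). MIR155HG, host of the oncogenic and immune regulator miR-155, averaged 4.24 ± 0.265 FPKM in the SIGLEC15 siRNA libraries and 4.34 ± 0.0835 FPKM in the control libraries (SD, n = 3 each). MIR222HG averaged 3.09 ± 0.0718 FPKM in the SIGLEC15 siRNA libraries and 3.71 ± 0.159 FPKM in the control libraries, below MIR155HG in both groups. MIR4435-2HG lay between 2.60 and 3.26 FPKM over the 6 libraries and MIR4453HG between 1.80 and 2.38 FPKM, with no overlap. MIR4458HG, between 2.29 and 2.64 FPKM, was above MIR4453HG in each of the 6 libraries, though their ranges overlapped. MIR22HG (2.59 ± 0.959 FPKM in the SIGLEC15 siRNA libraries and 2.58 ± 1.23 in the control libraries) and MIR31HG (2.02 ± 0.903 and 2.15 ± 0.251 FPKM in the SIGLEC15 siRNA and control libraries) varied too much for their places among these neighbours to be set. MIR17HG (1.15 ± 0.0933 FPKM in the SIGLEC15 siRNA libraries and 1.09 ± 0.138 in the control libraries) lay next to MIR4697HG (0.938 ± 0.128 FPKM in the SIGLEC15 siRNA libraries and 1.22 ± 0.0817 in the control libraries), in the opposite order in each group. The median of the 26 tested hosts was 0.745 FPKM, against 2.22 FPKM for all 18910 genes tested.

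The other tested hosts lay under 1 FPKM. MIR503HG, MIR762HG, MIR100HG, MIR600HG, MIR181A2HG and MIR497HG lay between 0.573 and 0.987 FPKM. MIR4713HG, MIR210HG, MIR137HG, MIRLET7BHG, MIR3681HG and MIR34AHG lay between 0.112 and 0.286 FPKM. The lowest 4, MIR193BHG, MIR3936HG, MIR29B2CHG and MIR99AHG, lay under 0.1 FPKM. MIR29B2CHG, host of miR-29b and miR-29c, averaged 0.0343 FPKM in the SIGLEC15 siRNA group and 0.0323 FPKM in the control group.

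The 19 hosts with too few counts had 2 to 62 counts summed over all libraries; 7 of them were seen in 1 library only and 2 in all 6. The highest sums were 62 counts for MIR378D2HG, 44 for MIR9-3HG, 38 for MIRLET7A1HG, 31 for MIR181A1HG and 19 for MIR4500HG. The 18 hosts with no count included MIR1-1HG and MIR122HG, hosts of the muscle microRNA miR-1 and the liver microRNA miR-122, and MIR200CHG and MIR205HG, hosts of the epithelial microRNAs miR-200c and miR-205, as well as MIR124-2HG, MIR202HG, MIR217HG and MIR670HG. A count of 0 allows up to 3 counts, which is 0.0447 to 0.051 CPM in the SIGLEC15 siRNA libraries and 0.0484 to 0.0508 CPM in the control libraries, for counting error only. CPM here means counts scaled to library size, with TMM factors. Of the table's genes as a whole, 29765 (50.6%) had no count.

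**Figure D1:**
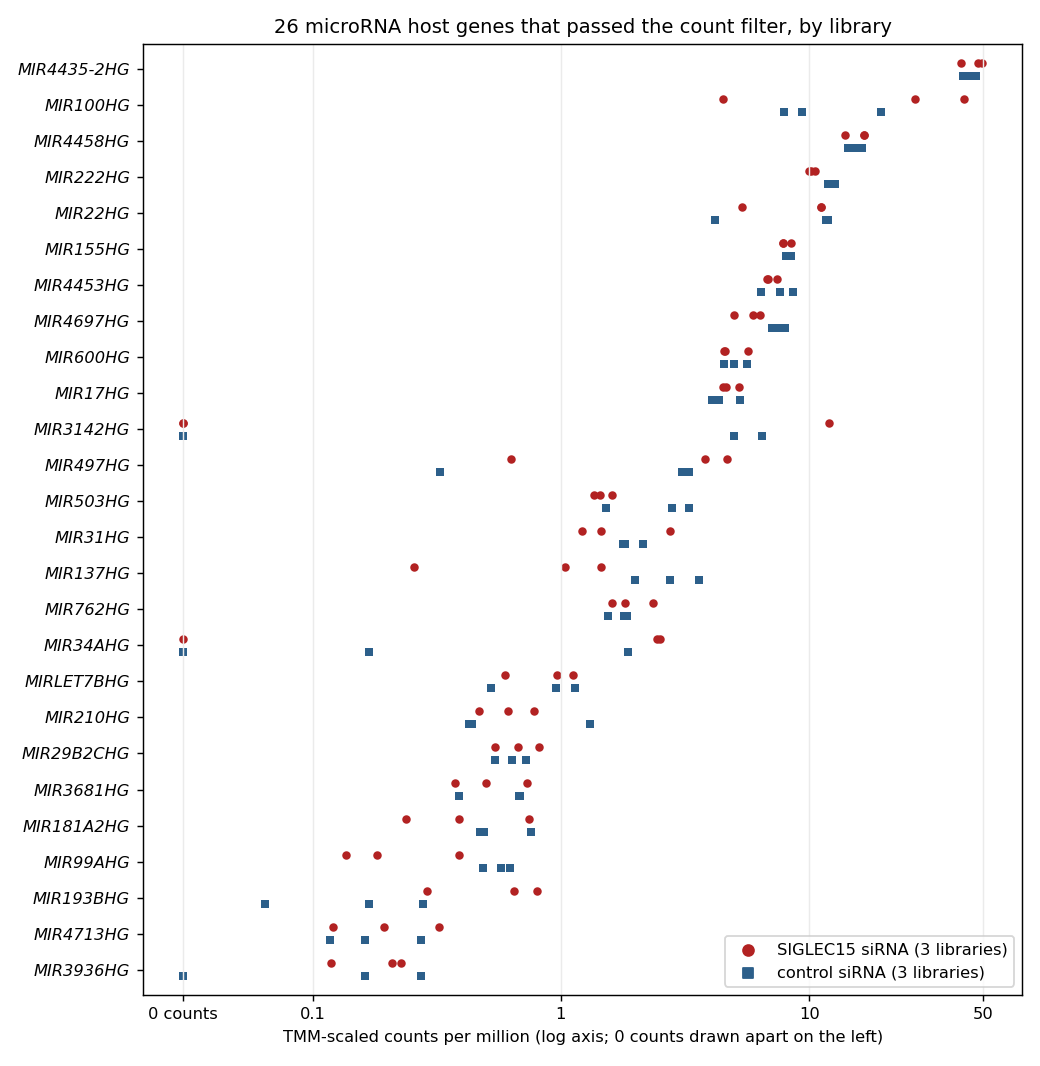
TMM-scaled CPM (log axis) of the 26 tested microRNA host genes in each of 3 SIGLEC15 siRNA libraries (red circles) and 3 control siRNA libraries (blue squares), with libraries at 0 counts drawn apart on the left. MIR4435-2HG lies between 40.8 and 49.9 in every library, while MIR3142HG and MIR34AHG are at 0 in a library of each group.

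Several hosts were read at nearly the same level in all 6 libraries. MIR155HG had 7.88, 8.49 and 7.84 CPM in the SIGLEC15 siRNA libraries and 8.09, 8.43 and 8.27 CPM in the control libraries. MIR17HG, the primary transcript of miR-17-92, had 4.48, 4.64 and 5.22 CPM in the SIGLEC15 siRNA libraries and 4.05, 4.33 and 5.25 CPM in the control libraries. The groups overlapped in both genes. The log2 fold change of MIR155HG was -0.03 (SE 0.108, 95% interval -0.29 to 0.22) and that of MIR17HG was 0.07 (SE 0.159, 95% interval -0.31 to 0.45).

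The interval of the log2 fold change lay inside -1 to 1, a doubling either way, for 12 of the 26 tested hosts. These were MIR155HG, MIR222HG, MIR4435-2HG, MIR4458HG, MIR31HG, MIR4453HG, MIR17HG, MIR4697HG, MIR762HG, MIR600HG, MIRLET7BHG and MIR29B2CHG. MIR4435-2HG had 47.9, 49.9 and 40.8 CPM in the SIGLEC15 siRNA libraries and 41.5, 44.7 and 46.8 CPM in the control libraries, with overlapping groups. MIR4458HG had 16.7, 14.0 and 16.6 CPM in the SIGLEC15 siRNA libraries and 14.3, 16.4 and 15.2 CPM in the control libraries, which also overlapped. MIR600HG, MIR762HG and MIR4453HG had log2 fold changes of -0.03, 0.15 and -0.11. For the other 14 hosts the data do not limit the change to less than a doubling.

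Other hosts differed between libraries of the same group by far more than between the groups. MIR3142HG, the host of miR-146a on chromosome 5 from 160438594 to 160487426, had 0, 708 and 0 counts in the SIGLEC15 siRNA libraries and 0, 294 and 395 counts in the control libraries. One SIGLEC15 siRNA library and 2 control libraries thus held all of its counts. MIR34AHG, the host of miR-34a, had 0, 148 and 164 counts in the SIGLEC15 siRNA libraries and 115, 10 and 0 counts in the control libraries. Each group had a library at 0 and a library above 100 counts. The 95% intervals of the log2 fold change were -5.08 to 5.21 for MIR3142HG and -2.75 to 5.31 for MIR34AHG, which limit the difference to no useful range.

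A pattern of 0 counts in one library and at least 100 in another of the same group occurred in these 2 of 26 tested hosts (7.69%), against 52 of all 18910 genes tested (0.275%), of which 28 were protein coding. This cut-off was not among the planned comparisons, so the shares only describe these data. MIR497HG, the host of miR-195 and miR-497, had 308, 37 and 255 counts in the SIGLEC15 siRNA libraries and 203, 182 and 20 counts in the control libraries, with 1 low library in each group. MIR22HG, the host of the broadly expressed miR-22, had 11.2, 11.2 and 5.34 CPM in the SIGLEC15 siRNA libraries and 4.18, 11.9 and 11.7 CPM in the control libraries. Here too each group had 1 low library. MIR100HG, whose cluster includes miR-100 and let-7a, had 41.9, 26.8 and 4.5 CPM in the SIGLEC15 siRNA libraries and 19.5, 9.39 and 7.91 CPM in the control libraries, so that SIGLEC15 siRNA replicate 3 lay below every control library and replicates 1 and 2 above all of them.

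**Figure D2:**
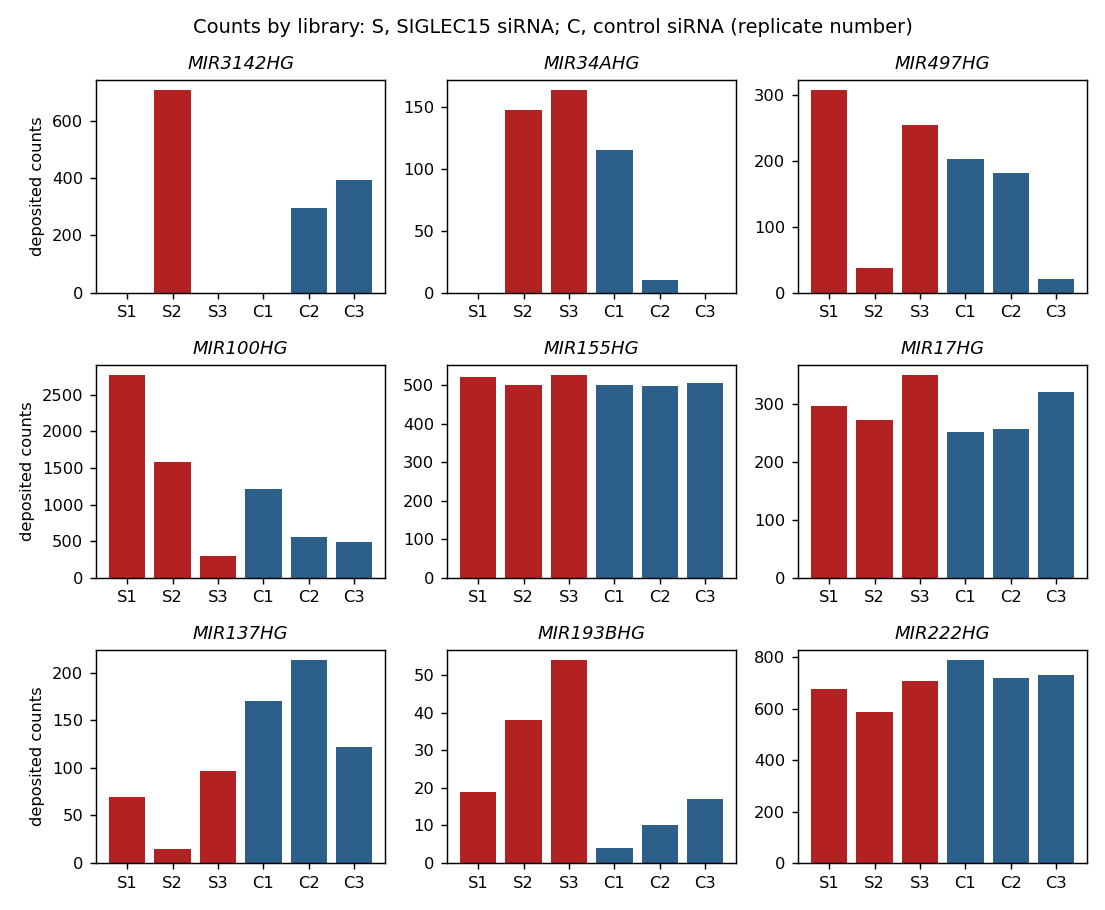
Deposited counts per library of 9 host genes; S1 to S3 are the SIGLEC15 siRNA libraries (red) and C1 to C3 the control siRNA libraries (blue), each bar 1 library, with an axis of its own from 0 for each gene. MIR3142HG, MIR34AHG, MIR497HG and MIR100HG vary strongly within a group, while MIR155HG and MIR17HG do not.

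The spread within a group, taken as the SD of log2(CPM + 0.1) over the 3 libraries pooled over both groups, had a median of 0.417 in the tested hosts and 0.21 in all genes tested. The hosts also lay lower, with a median of 1.93 CPM against 11.8 CPM for all genes tested, and the part of the lower level in the spread was not tested. MIR155HG and MIR222HG had spreads of 0.0493 and 0.0452, and MIR3142HG the largest of the hosts at 3.70. The second principal component of all genes tested set SIGLEC15 siRNA replicate 1 and control replicate 3 off from the other 4 libraries. SIGLEC15 siRNA replicate 1 was at 0 counts for MIR34AHG and, with replicate 3, for MIR3142HG. Replicate 2 was the low SIGLEC15 siRNA library for MIR497HG, and replicate 3 for MIR22HG and MIR100HG. Control replicate 3 was the lowest control library for MIR34AHG, MIR497HG and MIR100HG, and control replicate 1 for MIR22HG and MIR3142HG. Whether the uneven hosts follow particular libraries was not tested.

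**Figure D3:**
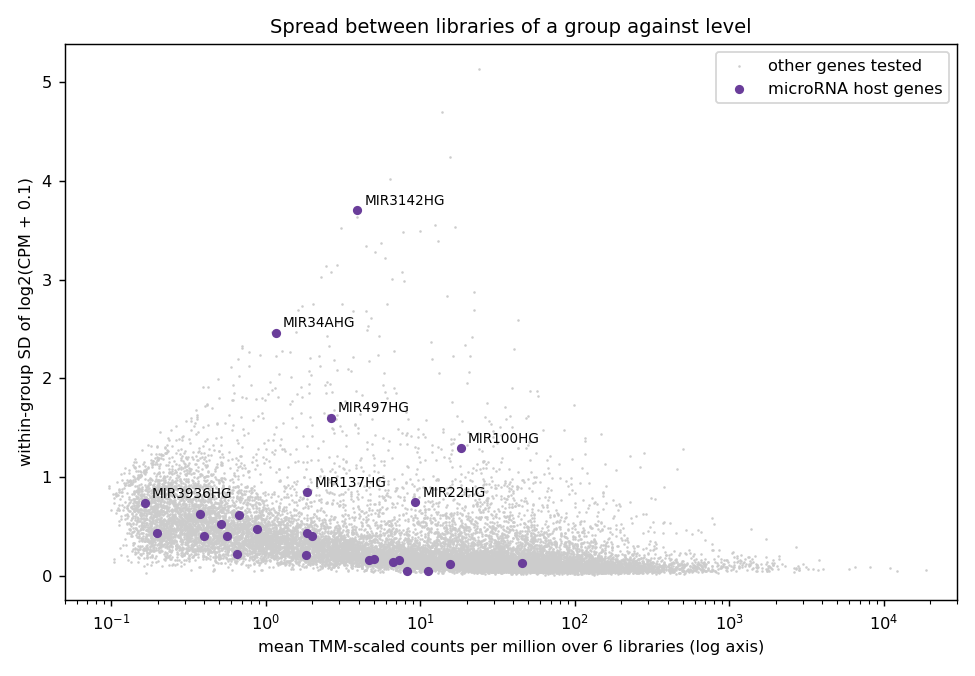
Within-group SD of log2(CPM + 0.1) against the mean CPM over 6 libraries (log axis) for the tested microRNA host genes (purple) and the other genes tested (grey dots). MIR3142HG (3.70), MIR34AHG (2.46), MIR497HG (1.60) and MIR100HG (1.29) lie above most genes of their level, and the other named hosts have a spread above 0.7.

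The comparison asks whether the poly(A) RNA level of microRNA hosts differed after the SIGLEC15 siRNA. edgeR's quasi-likelihood test called 0 of the 26 hosts at an adjusted p under 0.05, against 879 of 18910 genes tested (4.65%, with 419 higher, 2.22%, and 460 lower, 2.43%). At an unadjusted p under 0.05 there were 6 hosts (23.1%), 5 lower and 1 higher in the SIGLEC15 siRNA group, against 3610 of all genes tested (19.1%). DESeq2's Wald test called 2 hosts (7.69%), MIR137HG and MIR193BHG, against 2916 genes (15.4%), and gave no adjusted p for 2 other hosts. The 3 libraries of each group did not overlap in 5 of 26 hosts (19.2%), against 26.6% of all genes tested. The hosts' log2 fold changes were above 0 in 13 and below 0 in 13, with a median of 0.0145 against -0.00642 for all genes tested, and a median size of 0.171 against 0.215. In bulk RNA a lower level per cell and fewer cells of a kind that transcribes a host cannot be told apart.

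**Figure D4:**
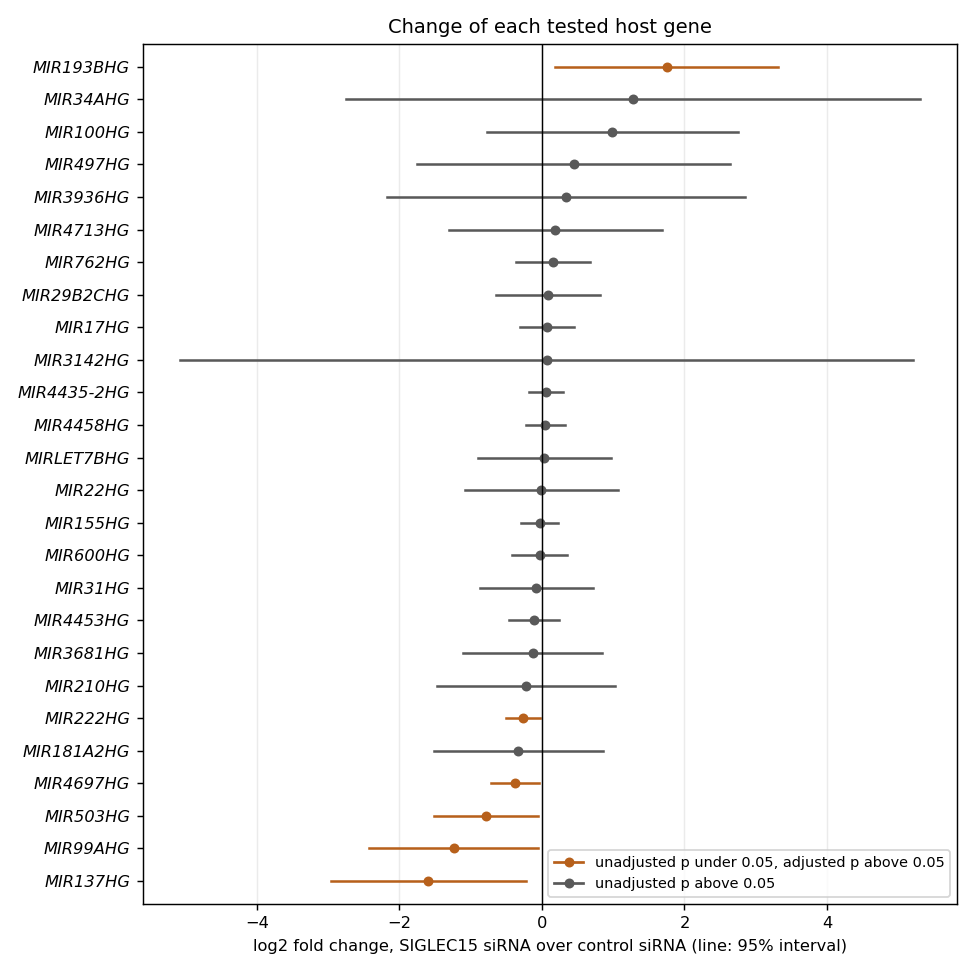
Log2 fold change of SIGLEC15 siRNA over control siRNA for the 26 tested host genes, with approximate 95% intervals derived from edgeR's fit. Orange marks the 6 hosts with an unadjusted p under 0.05, none of which had an adjusted p under 0.05. The intervals of MIR3142HG and MIR34AHG span more than 8 log2 units, and those of MIR155HG, MIR222HG and MIR4435-2HG stay close to 0.

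Of the hosts with an unadjusted p under 0.05, MIR137HG had the largest difference downward. This host of miR-137, a microRNA of neural differentiation, lies on the minus strand of chromosome 1 from position 97933474 to 98046221 in the table's coordinates. It had 1.04, 0.255 and 1.45 CPM in the SIGLEC15 siRNA libraries and 2.74, 3.61 and 1.99 CPM in the control libraries. All 3 SIGLEC15 siRNA libraries lay below all control libraries, replicate 2 the farthest. The mean was 3.02-fold lower, a log2 fold change of -1.60 (SE 0.573, 95% interval -2.96 to -0.23) that did not pass edgeR's test (unadjusted p = 0.0279, adjusted p = 0.191). DESeq2 gave it an adjusted p of 0.0121; over all alternatives its adjusted p ran from 0.0121 to 0.396.

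MIR193BHG, the host of miR-193b and miR-365a on the plus strand of chromosome 16 from 14301389 to 14328939, differed the other way. It had 19, 38 and 54 counts in the SIGLEC15 siRNA libraries and 4, 10 and 17 counts in the control libraries. In CPM the lowest SIGLEC15 siRNA library, at 0.288, lay just above the highest control library, at 0.278. Its log2 fold change was 1.75 (SE 0.655, 95% interval 0.19 to 3.31; edgeR adjusted p = 0.209), and DESeq2 gave an adjusted p of 0.0398 in a range over all alternatives of 0.0398 to 0.424. These are low counts, and the host averaged 0.0795 FPKM in the SIGLEC15 siRNA group and 0.0225 FPKM in the control group.

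The related clusters MIR99AHG and MIR100HG had fold changes of opposite sign, neither of which passed. MIR99AHG had 0.182, 0.136 and 0.388 CPM in the SIGLEC15 siRNA libraries and 0.484, 0.626 and 0.572 CPM in the control libraries, with groups that did not overlap. Its log2 fold change was -1.24 (SE 0.496; unadjusted p = 0.042, edgeR adjusted p = 0.24). MIR100HG had a log2 fold change of 0.99 (SE 0.74, 95% interval -0.77 to 2.75; edgeR adjusted p = 0.541), which was 0.35 without SIGLEC15 siRNA replicate 1 and 1.5 without control replicate 1. The difference between these 2 hosts was not tested. By FPKM MIR100HG was the higher of the pair in both groups, at 1.05 ± 0.807 against 0.0154 ± 0.00849 in the SIGLEC15 siRNA libraries and 0.530 ± 0.278 against 0.0391 ± 0.00665 in the control libraries (SD, n = 3 each). The other hosts of the let-7 seed, MIRLET7BHG and MIR4458HG, had log2 fold changes of 0.03 (SE 0.391) and 0.05 (SE 0.115).

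Among hosts of at least moderate level, 2 had small differences with groups fully apart. MIR222HG, the host of miR-221 and miR-222, which repress the cell-cycle inhibitor p27, had 10.2, 9.95 and 10.6 CPM in the SIGLEC15 siRNA libraries and 12.7, 12.2 and 11.9 CPM in the control libraries. Its log2 fold change was -0.26 (SE 0.0976, 95% interval -0.50 to -0.03; edgeR adjusted p = 0.205). MIR4697HG had 4.99, 6.35 and 5.96 CPM in the SIGLEC15 siRNA libraries and 7.96, 7.45 and 7.11 CPM in the control libraries. Its log2 fold change was -0.38 (SE 0.141, 95% interval -0.71 to -0.04; edgeR adjusted p = 0.205). MIR503HG, the host of the cell-cycle microRNA miR-503, had 1.44, 1.36 and 1.61 CPM in the SIGLEC15 siRNA libraries and 1.52, 2.81 and 3.28 CPM in the control libraries. Control replicate 1 fell among the SIGLEC15 siRNA libraries, and the log2 fold change was -0.79 (SE 0.304; edgeR adjusted p = 0.223).

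The remaining tested hosts had unadjusted p-values above 0.05. MIR210HG had 0.469, 0.781 and 0.611 CPM in the SIGLEC15 siRNA libraries and 1.31, 0.440 and 0.425 CPM in the control libraries, where 1 control library was high and the others lay below the SIGLEC15 siRNA libraries. MIR31HG, the host of miR-31, had 2.75, 1.22 and 1.45 CPM in the SIGLEC15 siRNA libraries and 2.15, 1.78 and 1.81 CPM in the control libraries. The groups overlapped in both genes. MIR181A2HG, MIR3681HG, MIR4713HG and MIR3936HG, all under 1 CPM in every library, had log2 fold changes of -0.33, -0.13, 0.19 and 0.34, and MIR29B2CHG had 0.09 (SE 0.308, 95% interval -0.64 to 0.82).

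The rows of the microRNA genes themselves held almost no counts. On the strand of the tested hosts there were 46 microRNA gene rows: 17 had no count, 40 had at most 2 counts in every library, and 5 had exactly 1 count in each library. Only MIR221, an intronic row of MIR222HG, passed the filter, with 28, 12 and 14 counts in the SIGLEC15 siRNA libraries and 18, 14 and 11 counts in the control libraries. The groups overlapped (log2 fold change 0.24, edgeR adjusted p = 0.864). The row of MIR146A, inside an exon of MIR3142HG, had 1, 0 and 1 counts in the SIGLEC15 siRNA libraries and 1, 0 and 0 counts in the control libraries, that is 1 count in each library in which MIR3142HG was at 0. MIR34A, inside an exon of MIR34AHG, had 1, 0 and 0 counts in the SIGLEC15 siRNA libraries and 0, 1 and 1 in the control libraries. Its counts fell in the libraries in which MIR34AHG had 0 or 10 counts. By contrast MIR155 had 1 count in every library, while MIR155HG had 498 to 526. How reads were divided between such rows was not tested.

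Some host values are uncertain because the exons overlap other genes or share sequence with them, and the use of strand in counting is not given in the sources used here. Exons of BCL7C on the other strand covered 27.5% of the exonic bases of MIR762HG, those of C17orf49 covered 38.2% of MIR497HG, and those of IFNWP19 covered 40.7% of MIR31HG. IFNWP19 averaged 2.53 FPKM over the 6 libraries, above the 2.09 FPKM of MIR31HG. How much of the MIR31HG value comes from IFNWP19 was not tested. MIR762HG and MIR497HG shared 48.0% and 43.6% of their 50-base words, most often with BCL7C and C17orf49. MIR4435-2HG shared 27.8% of its 50-base words with other transcripts, most often with CYTOR, its paralogue. CYTOR averaged 1.62 FPKM in the SIGLEC15 siRNA group and 1.81 FPKM in the control group (log2 fold change -0.16, edgeR adjusted p = 0.75). MIR600HG shared 4.24% of its exonic bases with STRBP on the same strand. STRBP averaged 9.81 FPKM in the SIGLEC15 siRNA group and 8.66 FPKM in the control group. MIR137HG shared 7.17% of its 50-base words, most often with DPYD, and MIR4713HG shared 19.9%. No 50-base word of MIR222HG, MIR503HG, MIR181A2HG or MIR3681HG occurred in another transcript.

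Of 57 other genes that overlap a tested host, 20 were tested and 2 passed, where 4.65% of all genes tested did. NR6A1, a nuclear receptor gene on the other strand around MIR181A2HG, had 9.15, 8.85 and 7.60 CPM in the SIGLEC15 siRNA libraries and 4.60, 4.10 and 3.68 CPM in the control libraries. It was higher in every SIGLEC15 siRNA library (log2 fold change 1.05, SE 0.149, edgeR adjusted p = 0.0146), and shared no exonic base with MIR181A2HG. AC068491 (ENSG00000279191), on the same strand within MIR4435-2HG but with no shared exonic base, averaged 2.53 ± 0.405 CPM in the SIGLEC15 siRNA group and 1.12 ± 0.260 CPM in the control group (log2 fold change 1.17, edgeR adjusted p = 0.0465). With 1 library left out, the adjusted p ran from 0.0343 to 0.0686 for NR6A1, called without SIGLEC15 siRNA replicate 3 or control replicate 1 and in none of the other such fits, and from 0.0686 to 0.141 for AC068491, called in none of them. AC068491 also lost its call with no filter on low counts (adjusted p = 0.0781). BCL2L11, the gene of the death-promoting protein BIM, lies inside MIR4435-2HG on the other strand and overlaps 5.55% of its exonic bases. It had 6.61, 7.61 and 6.84 CPM in the SIGLEC15 siRNA libraries and 14.2, 14.8 and 4.17 CPM in the control libraries. Its log2 fold change was -0.66 (edgeR adjusted p = 0.486).

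Genes of microRNA processing changed in 4 of 24 tested cases, 2 higher and 2 lower (16.7%, against 4.65% of all genes tested). That 4.65% is over genes of every level, with a median of 2.22 FPKM. In the fit limited to a mean of at least 5 FPKM, 689 of 6403 genes passed. This fit held 27 of the 30 called genes of all lists. The shares given here and for the lists below are therefore not set against genes of like level. All lists were also chosen with earlier results of these data known, so their shares only describe these data. KHSRP, an RNA-binding protein that aids the processing of some microRNA precursors, had 110, 114 and 114 CPM in the SIGLEC15 siRNA libraries and 257, 263 and 271 CPM in the control libraries. It fell by 1.23 on the log2 scale (SE 0.0551, edgeR adjusted p = 0.000636). LIN28B, which blocks the maturation of let-7, had 77.2, 81.1 and 86.4 CPM in the SIGLEC15 siRNA libraries and 36.1, 36.7 and 30.3 CPM in the control libraries. It rose by 1.25 (SE 0.0985, adjusted p = 0.00238), with groups far apart.

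The enzymes of both cutting steps moved in opposite directions. DROSHA had 88.3, 88.9 and 97.7 CPM in the SIGLEC15 siRNA libraries and 138, 130 and 131 CPM in the control libraries, and its log2 fold change was -0.54 (SE 0.067, edgeR adjusted p = 0.00979). DICER1 had 133, 163 and 176 CPM in the SIGLEC15 siRNA libraries and 105, 92.9 and 79.4 CPM in the control libraries, and its log2 fold change was 0.77 (SE 0.139, adjusted p = 0.0309). All SIGLEC15 siRNA libraries lay below the control libraries for DROSHA and above them for DICER1. DROSHA was no longer called without SIGLEC15 siRNA replicate 2, and DICER1 was called without SIGLEC15 siRNA replicate 1 but in no other fit that left out 1 library, while KHSRP and LIN28B were called in all 6 such fits. The other 20 tested genes of the list did not pass, and the median log2 fold change of the list was -0.00369.

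Protein-coding genes that carry microRNAs in their introns passed in 3 of 40 tested cases (7.5%), a share near the 4.65% of all genes tested. IGF2, the growth factor gene that hosts miR-483, averaged 71.2 ± 5.65 CPM in the SIGLEC15 siRNA group and 41.4 ± 1.69 CPM in the control group (log2 fold change 0.78, edgeR adjusted p = 0.00655). PANK3, a pantothenate kinase gene that hosts miR-103a, averaged 233 ± 25.8 CPM in the SIGLEC15 siRNA group and 171 ± 5.95 CPM in the control group (0.44, adjusted p = 0.0442). SREBF2, the sterol regulator gene that hosts miR-33a, was lower, at 129 ± 2.93 CPM in the SIGLEC15 siRNA group and 171 ± 3.06 CPM in the control group (-0.41, adjusted p = 0.0126). Of 11 tested host lncRNAs that go by other names, 0 passed in edgeR, 2 had an unadjusted p under 0.05 and DESeq2 called 1; their median log2 fold change was -0.194.

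Transcription factors known to act on microRNA hosts passed in 3 of 18 cases (16.7%, against 4.65% of all genes tested). The immediate early factors EGR1 and JUN were lower, EGR1 at 12.3 ± 0.310 CPM in the SIGLEC15 siRNA group and 30.0 ± 2.01 CPM in the control group, and JUN at 126 ± 1.80 CPM in the SIGLEC15 siRNA group and 223 ± 17.9 CPM in the control group. STAT3 was higher, at 118 ± 3.29 CPM in the SIGLEC15 siRNA group and 77.1 ± 2.93 CPM in the control group. Their edgeR adjusted p-values were 0.0018, 0.00396 and 0.00536.

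Textbook targets of the hosted microRNAs are mRNAs that a microRNA has been shown to repress elsewhere, and they were read out for 12 microRNAs or clusters. Several genes stand in more than one list, such as CCND1 in 4 of them, so the lists are not independent. Because the lists were chosen with earlier results known, a share above that of all genes tested is no evidence about a microRNA. Of the 12 tested let-7 targets 5 were higher and 0 lower (41.7% higher, against 2.22% of all genes tested), with a median log2 fold change of 0.3. The 4 with the smallest p were LIN28B, CDC25A, DICER1 and NRAS. CDC25A, a phosphatase that activates cyclin-dependent kinases, averaged 147 ± 7.37 CPM in the SIGLEC15 siRNA group and 93.4 ± 6.0 CPM in the control group, and the RAS gene NRAS averaged 388 ± 20.1 CPM in the SIGLEC15 siRNA group and 312 ± 1.87 CPM in the control group. IGF2BP1 was the fifth (log2 fold change 0.31, edgeR adjusted p = 0.0447) and is named outside the naming rule, its values being known.

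Of the 9 tested miR-29 targets, mostly matrix genes, 5 were higher (55.6%, against 2.22% of all genes tested) and 1 was lower (against 2.43%), with a median log2 fold change of 0.692. SPARC, a secreted matrix protein of bone, averaged 604 ± 7.68 CPM in the SIGLEC15 siRNA group and 346 ± 6.34 CPM in the control group (log2 fold change 0.80, edgeR adjusted p = 0.00137). The collagen genes COL4A2 and COL1A1 had log2 fold changes of 0.49 and 0.69, and the DNA methyltransferase gene DNMT3B had 1.19 (adjusted p = 0.00662, 0.0134 and 0.0157). COL4A1 was also higher and the survival gene MCL1 lower; these are likewise named with their values known. The host of miR-29b and miR-29c, MIR29B2CHG, had no called difference beside these genes.

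For miR-424 and miR-503 3 of 7 targets were higher (42.9%, against 2.22% of all genes tested): CDC25A, CCND1 and WEE1. WEE1, the kinase that holds back mitosis, had 90.3, 97.6 and 163 CPM in the SIGLEC15 siRNA libraries and 37.2, 42.0 and 53.1 CPM in the control libraries (log2 fold change 1.41, edgeR adjusted p = 0.0301), with SIGLEC15 siRNA replicate 3 the highest. For miR-17-92 3 of 10 were higher (TGFBR2, THBS1 and CCND1; 30.0%, against the same 2.22%) and CCN2 was lower, at 110 ± 22.4 CPM in the SIGLEC15 siRNA group and 337 ± 43.2 CPM in the control group. For miR-34a 2 of 12 were higher (CCND1 and JAG1) and 2 lower (BCL2 and AXL), that is 33.3% in either direction, against 4.65% of all genes tested.

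The other lists held 0 to 2 calls each, to be read against 4.65% of all genes tested. CDKN1B, the gene of p27 and a target of miR-221 and miR-222, was higher, at 63.3 ± 1.57 CPM in the SIGLEC15 siRNA group and 45.9 ± 1.78 CPM in the control group (log2 fold change 0.46, edgeR adjusted p = 0.0161), and was 1 of 6 called in its list. LATS2 was 1 of 7 in the miR-31 list and LIN28B 1 of 7 in the list of miR-100, miR-99a and miR-125b, both higher. In the miR-193b list CCND1 was higher and MCL1 lower, of 4 tested, and in the miR-155 list ETS1 was lower, of 4. Of 6 tested miR-22 targets 0 passed in edgeR, with 4 at an unadjusted p under 0.05 and 4 called by DESeq2; of 6 tested miR-210 targets 0 passed, with 1 and 1 by those measures. Over all genes tested those shares were 19.1% at an unadjusted p under 0.05 and 15.4% by DESeq2. Of the 30 called genes of all lists, 10 were called in every fit that left out 1 library (CCN2, CDC25A, COL4A2, EGR1, IGF2, JUN, KHSRP, LIN28B, SPARC and STAT3) and 11 to 21 in any single one, all in the same direction. No link between a host's level and its targets was tested, since the mature microRNAs were not measured.

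**Figure D5:**
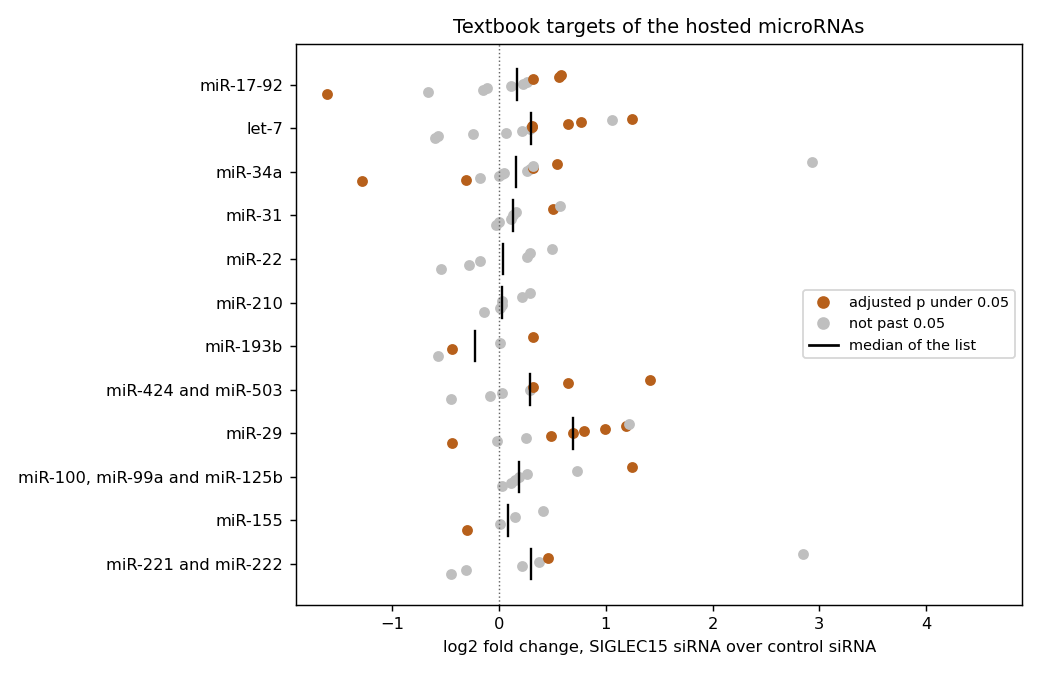
Log2 fold change of SIGLEC15 siRNA over control siRNA for each tested textbook target (1 point per gene), by microRNA; orange points have an edgeR adjusted p under 0.05, and black bars mark the median of the list. The miR-29 list has the highest median (0.692) and the miR-193b list the lowest (-0.219).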

How the data were processed

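Poly(A) RNA was sequenced as paired-end libraries, per the labels' protocols. The authors deposited whole-number counts per gene and, beside them, FPKM values, per the file headers. HISAT, StringTie and edgeR are named in the submitters' processing notes, without versions; how counts were made, the strand setting and the genome build: not given in the sources used here. All 63 host IDs are in GENCODE 29, 48 with the same start and end. There were 0 columns without a sample. A gene with no count is listed at 0.0001 FPKM.

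The test on the counts was that of edgeR 4.0.16, run in R 4.3.3 (filterByExpr, minimum count 10, minimum total 15; TMM; quasi-likelihood F test over all 6 libraries; Benjamini-Hochberg over all genes tested, threshold 0.05). It was checked on simulated data. Standard errors were derived from the log2 fold change and F statistic of the same fit, and 95% intervals from these with a t distribution. Both are approximate. Tables were made with Python 3.11.15, pandas 2.3.3 and scipy 1.17.1; exons and shared 50-base words are from GENCODE 29. Alternatives were limma 3.58.1 on FPKM, other filters and size factors, DESeq2 1.42.0, the replicate number as a block and each library left out.

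The host genes and lists were chosen with earlier results of these data known. Every tested host is named; of other lists, the called genes, up to 4 with the smallest p; of untested hosts up to 5 with the highest counts and 8 with no count; and every called gene overlapping a host. Counting intervals and floors cover counting error only.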

Additional observations from a re-analysis of the deposited data

How the results depend on the processing

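The count of changed host genes was 0 under every alternative that could be run except DESeq2, which called 2; a mean FPKM of at least 5 left no host to test. Over all genes tested the count of 879 was 2916 with DESeq2, which shared 874 calls with edgeR, 50 with the replicate number as a block, and 260 to 431 with 1 library left out (392, 266 and 431 without SIGLEC15 siRNA replicates 1, 2 and 3; 329, 260 and 342 without control replicates 1, 2 and 3). It stayed within 1.5 times 879 under limma-trend, no filter, the stricter filter and other size factors. Same-numbered libraries did not deviate together (correlations of -0.0489, 0.0111 and -0.0626). With 3 libraries per group this cannot settle whether the numbers pair them, and the labels do not say. With the block 4 of the 30 called list genes were called (EGR1, KHSRP, SPARC and WEE1), and all 30 kept their direction. In that fit NR6A1 and AC068491 had edgeR adjusted p-values of 0.0819 and 0.173. Of 280 host values under alternatives, 246 kept direction and side of the threshold, 2 newly passed and 32 changed sign, in 14 hosts; the cause was not tested. MIR22HG had a log2 fold change of 0.03 and 0.07 with limma and 0.05 with the block, and MIR3142HG had -0.25 and -1.10 with limma and -2.20 with the block. With 1 library left out, log2 fold changes ran from -0.0039 to 0.18 for MIR17HG, -0.50 to 0.52 for MIR210HG, -0.36 to 0.27 for MIR22HG, -0.06 to 0.22 for MIR29B2CHG, -10.91 to 0.68 for MIR3142HG, -0.52 to 0.13 for MIR31HG, -0.42 to 0.07 for MIR3681HG, -0.24 to 1.15 for MIR3936HG, -0.00098 to 0.12 for MIR4458HG, -0.23 to 0.58 for MIR4713HG, -0.07 to 0.93 for MIR497HG, -0.15 to 0.05 for MIR600HG, -0.02 to 0.27 for MIR762HG and -0.23 to 0.27 for MIRLET7BHG. The value of -10.91 is against a group at 0 and is no bound. MIR137HG ran from -2.09 to -1.16, MIR193BHG from 1.36 to 2.29, MIR99AHG from -1.80 to -0.97, MIR100HG from 0.35 to 1.5, MIR34AHG from 0.70 to 4.27, MIR181A2HG from -0.87 to -0.03 and MIR222HG from -0.29 to -0.24, all on 1 side of 0. Hosts under 0.1 FPKM rest on few counts, 4 to 54 a library for MIR193BHG.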
